A study of Mus musculus with 6 samples.

Results

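Expression of 10 genes that encode Fc receptors for IgG and the signaling partners and inhibitors of phagocytes was followed in mouse MLL-AF9 leukemia cells. They are the activating IgG receptors Fcgr1, Fcgr3 and Fcgr4, the adaptors Fcer1g and Tyrobp, the kinase Syk, the inhibitory receptors Fcgr2b and Sirpa, the ligand Cd47 and the phosphatase Ptpn6. The genes were chosen by name from the 26082 different gene names of the expression table, and each had 1 entry. RNA-Seq had been performed on leukemia cells taken from the bone marrow of leukemic mice, 3 samples from mice given vehicle and 3 from mice given DS-5272, an MDM2 inhibitor that activates p53, at 80 mg/kg by mouth 24 h earlier. In both groups the strain was C57BL/6J and the cells carried MLL-AF9, a fusion oncogene of acute myeloid leukemia. In this model the fusion is delivered by retrovirus into c-Kit+ marrow progenitors, and the leukemia is passed serially through recipient mice, so the samples represent a transplanted line in hosts that keep their own marrow cells. The age of the mice, and how leukemia cells were separated from other marrow cells for these libraries, are not given in the sources used here. The labels do not say whether each sample came from a different mouse, so the p-values measure the spread between these samples, which may be technical in part.

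Activating IgG receptors of the mouse have little signaling capacity of their own. They depend on the shared chain Fcer1g, which carries an activation motif called ITAM, and Tyrobp (DAP12) is the corresponding ITAM adaptor of many other myeloid receptors. A phosphorylated ITAM recruits the kinase Syk, which triggers engulfment of antibody-coated cells. Fcgr2b carries the inhibitory motif ITIM and dampens the activating receptors on the same cell. Sirpa, an inhibitory receptor of myeloid cells, binds Cd47, the "don't eat me" signal that most cells display, and its ITIMs recruit the phosphatase Ptpn6 (SHP-1). Monocytes, macrophages and neutrophils use all of these molecules, and acute myeloid leukemia cells, which derive from the same lineage, express many of them.

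In the deposited values, which are FPKM (fragments per kilobase of transcript, scaled to the mapped fragments of the library), 8 of the 10 genes were called higher after DS-5272 and 0 were called lower. The activating receptors rose together with their adaptors, with folds of the group means of 25.2 for Fcgr1, 5.70 for Fcgr4 and 2.61 for Fcgr3. The inhibitory IgG receptor Fcgr2b and the ligand Cd47 had the smallest folds, 1.23 and 1.25, and did not pass the threshold. With the replicate number as a block in the fit both passed, so that 10 of 10 were called higher (limma adjusted p = 0.0418 for Fcgr2b and 0.0377 for Cd47). In that fit 3367 of all 11130 genes tested were called higher and 2771 lower. The other inhibitory genes, Sirpa at 2.92-fold and Ptpn6 at 2.19-fold, rose. A gene was called when its adjusted p was under 0.05 in limma, fitted on log2(FPKM + 1) to the 11130 genes whose average reached 1 FPKM and adjusted by the Benjamini-Hochberg method. All fold changes and errors on the log2 scale below are on this scale, on which changes of weakly expressed genes come out too small. In the same fit 24.2% of all genes were called higher and 22.0% were called lower. The median log2 fold change was 1.25 over the 10 genes and 0.04 over all genes tested. Fcgr1 had a vehicle mean under 1 FPKM and so passed the filter on low values only through its DS-5272 samples, which means that it had to differ. The median of the 10 genes includes it. Of the 9 other genes 7 were called higher. At an unadjusted p under 0.05 in the same limma fit, 10 were higher and 0 lower. The share of all genes at this limit was not counted, so this count has no background to be set against. The groups did not overlap for any of the 10 genes, which was also so for 61.8% of all genes tested.

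**Figure D1:**
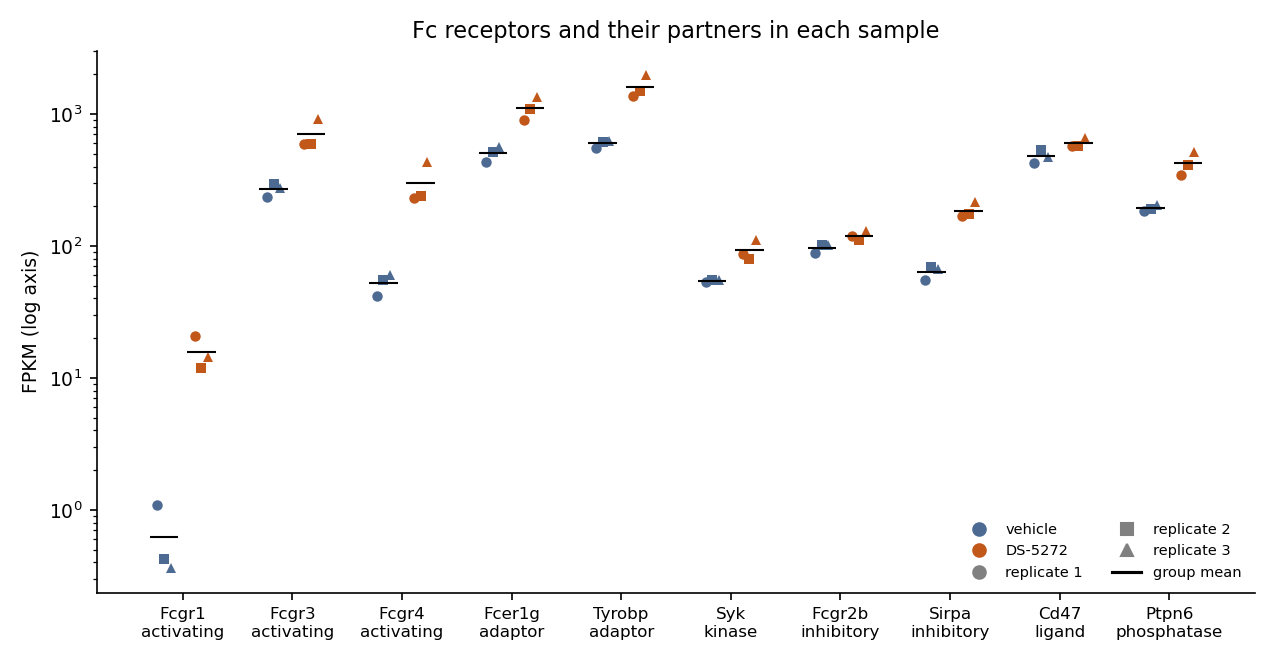
FPKM of the 10 genes (log axis) in each vehicle (blue) and DS-5272 (orange) sample, with replicate 1 as circles, replicate 2 as squares, replicate 3 as triangles and group means as black lines. Fcgr1 moves from under 1.1 to above 11 FPKM, and the groups lie closest together for Fcgr2b and Cd47.

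Depth is not part of the table. From the step that 1 fragment adds to low genes it was estimated at 25400000 to 47100000 fragments per sample, and each vehicle sample was deeper than each DS-5272 sample. The FPKM sum ran from 445316 to 501241 in the vehicle and from 499229 to 661184 in the DS-5272 samples, so the deposited values of the 2 groups do not add up to the same total. When every sample was rescaled to a common total, the median log2 fold change of all genes moved by -0.21 and calls over all genes went from 2697 higher and 2451 lower to 1717 higher and 3536 lower. With a common upper quartile they were 2233 higher and 3179 lower. The same 8 genes were called higher under each rescaling, and the 10 genes together made up from 0.466% to 0.495% of the FPKM sum in the vehicle samples and from 0.825% to 0.953% in the DS-5272 samples. Under the common total the groups still did not overlap for 8 of the 10 genes. The share of all genes without overlap was not counted on that scale, so this count has no background.

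Fcgr2b, Fcgr4, Fcgr3 and Fcer1g lie in this order within a short stretch of chromosome 1, and the other genes lie on separate chromosomes. On GRCm38 in the GENCODE annotation, Fcgr2b is at chr1:170958617-170976547 (minus strand), Fcgr4 at chr1:171018920-171029761 (plus), Fcgr3 at chr1:171051174-171064935 (minus) and Fcer1g at chr1:171229572-171234365 (minus). Fcgr1 is at chr3:96282909-96293969 (minus), Tyrobp at chr7:30413760-30417585 (plus) and Syk at chr13:52583173-52648792 (plus). Sirpa is at chr2:129592835-129632228 (plus), Cd47 at chr16:49800533-49915010 (plus) and Ptpn6 at chr6:124720707-124738714 (minus). All 10 are protein-coding. Within the cluster on chromosome 1, Fcgr2b had the smallest fold of the 10 genes, and its neighbor Fcgr4 had a fold exceeded only by Fcgr1.

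The promoters of the 4 IgG receptor genes are shown because these genes span the range from the largest fold to the smallest. They are RefSeq sequences on GRCm38.p6, from 250 bases before to 50 bases after the start site, written 5′ to 3′ on the strand of the gene. Capitals mark every match to motifs that were searched on both strands: GAS (TTCNNNGAA, an element of interferon gamma signaling), the PU.1 core (GAGGAA, which reads TTCCTC on the other strand), the ISRE core (GAAANNGAA, interferon-stimulated response element) and the p53-binding decamer. PU.1 is a transcription factor of the myeloid lineage. Fcgr1 is at chr3:96293920-96294219 (minus), Fcgr4 at chr1:171018676-171018975 (plus), Fcgr3 at chr1:171059354-171059653 (minus, one of its start sites in the table) and Fcgr2b at chr1:170976022-170976321 (minus).
Fcgr1: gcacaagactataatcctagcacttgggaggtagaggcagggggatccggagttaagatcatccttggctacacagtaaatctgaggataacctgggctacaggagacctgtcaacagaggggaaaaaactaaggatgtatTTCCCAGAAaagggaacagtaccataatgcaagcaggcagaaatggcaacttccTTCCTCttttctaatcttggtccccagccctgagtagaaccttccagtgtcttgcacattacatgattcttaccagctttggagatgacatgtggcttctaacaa
Fcgr4: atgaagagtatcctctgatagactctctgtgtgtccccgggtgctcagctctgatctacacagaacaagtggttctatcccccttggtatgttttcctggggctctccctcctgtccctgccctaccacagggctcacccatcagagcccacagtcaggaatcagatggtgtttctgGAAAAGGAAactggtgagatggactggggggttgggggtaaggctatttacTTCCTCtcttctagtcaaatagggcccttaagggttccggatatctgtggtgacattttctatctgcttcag
Fcgr3: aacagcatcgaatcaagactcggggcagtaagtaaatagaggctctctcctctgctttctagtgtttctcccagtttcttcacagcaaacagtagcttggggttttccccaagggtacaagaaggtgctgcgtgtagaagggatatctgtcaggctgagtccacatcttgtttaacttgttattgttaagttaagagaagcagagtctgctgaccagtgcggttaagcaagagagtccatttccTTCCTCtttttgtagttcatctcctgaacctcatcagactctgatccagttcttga
Fcgr2b: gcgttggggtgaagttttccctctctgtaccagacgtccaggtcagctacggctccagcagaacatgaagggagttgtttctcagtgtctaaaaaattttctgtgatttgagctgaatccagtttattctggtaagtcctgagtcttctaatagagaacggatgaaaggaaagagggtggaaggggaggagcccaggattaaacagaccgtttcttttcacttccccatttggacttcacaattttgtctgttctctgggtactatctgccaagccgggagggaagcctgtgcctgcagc
The Fcgr1 promoter holds a GAS match from base -109 to -101 relative to the start site and a PU.1 core from -55 to -50. The Fcgr4 promoter holds an ISRE core from -73 to -65 and a PU.1 core from -22 to -17. The Fcgr3 promoter holds a PU.1 core from -6 to -1. No match was found in the Fcgr2b window, and none of these matches overlaps another. Promoters of 8 of the 10 genes were in the table, without Tyrobp and Sirpa. Of the others, Syk holds a PU.1 core at another start site, and none of the searched motifs was found in Fcer1g, Cd47 and Ptpn6. The p53-binding decamer was found in 0 of the 8 genes. Among 32544 promoters of the same length 8.33% hold a GAS match, 28.1% a PU.1 core, 8.53% an ISRE core and 8.36% the p53-binding decamer. These matches describe letters in a window, and binding was not measured.

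Fcgr1 encodes the high-affinity IgG receptor. In the order of replicates 1, 2 and 3, which all such lists of values follow, its level was 1.08, 0.424 and 0.362 FPKM with vehicle and 20.7, 11.9 and 14.5 FPKM with DS-5272. On average the gene was near the bottom of the expressed range with vehicle and in the middle of it with DS-5272, and the lowest treated sample was far above the highest vehicle sample. The group means were 0.623 ± 0.400 and 15.7 ± 4.54 FPKM (SD, n = 3), and the log2 fold change was 3.36 (SE 0.25, limma adjusted p = 0.000687). With a pseudocount of 0.1 in place of 1 it was 4.55, and without DS-5272 replicate 1, the highest sample, it was 3.15 (limma adjusted p = 0.00178). The vehicle values correspond to an estimated 39 to 130 fragments per sample and the DS-5272 values to 950 to 1900, so the low level was measured and not at the floor. Of all genes tested, 99.6% had a smaller log2 fold change than Fcgr1. Its rank and adjusted p are not free of selection, since Fcgr1 passed the filter on low values only through its DS-5272 samples.

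Fcgr4 encodes an activating receptor of monocytes, macrophages and neutrophils that binds the IgG subclasses 2a and 2b. It was at 41.9, 55.3 and 60.7 FPKM in the vehicle samples and at 232, 239 and 430 FPKM in the DS-5272 samples. The highest value, in DS-5272 replicate 3, stood well above the other two. The means were 52.6 ± 9.67 and 300 ± 112 FPKM (SD, n = 3), with a log2 fold change of 2.45 (SE 0.27, limma adjusted p = 0.00191). Without DS-5272 replicate 3 it was 2.16, and the limma adjusted p was 0.00178.

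Fcgr3 encodes the activating receptor that most myeloid cells and natural killer (NK) cells of the mouse share. It was the most abundant IgG receptor transcript in each of the 6 samples, at 235, 297 and 274 FPKM with vehicle and at 589, 596 and 921 FPKM with DS-5272. Its log2 fold change was 1.36 (SE 0.20, limma adjusted p = 0.00426), and group means were 269 ± 31.3 and 702 ± 190 FPKM (SD, n = 3). Without DS-5272 replicate 3, again the highest sample, it was 1.15 (limma adjusted p = 0.00397). Of the 100-base stretches of the Fcgr3 transcripts 3.53% also occur in Fcgr2b, and 12.8% of its 50-base stretches do, so a small part of its fragments could be assigned to the inhibitory gene or the reverse.

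The adaptors were the most abundant transcripts of the group. Fcer1g, the common chain of the activating receptors, was at 432, 518 and 561 FPKM with vehicle and at 903, 1090.5 and 1345 FPKM with DS-5272. The means were 503 ± 65.7 and 1113 ± 222 FPKM (SD, n = 3) and the log2 fold change was 1.13 (SE 0.19, limma adjusted p = 0.00537). Tyrobp was at 556, 616 and 622 FPKM with vehicle and at 1358, 1505 and 1962 FPKM with DS-5272. It rose by 1.41 on the log2 scale (SE 0.17, limma adjusted p = 0.00243), from 598 ± 36.9 to 1608 ± 315 FPKM (SD, n = 3). The log2 fold change of Fcer1g was below those of the 3 receptors it carries, and the FPKM ratio of Fcer1g to the summed activating receptors was 1.57 ± 0.104 with vehicle and 1.12 ± 0.156 with DS-5272 (SD, n = 3, not tested).

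Syk had the smallest log2 fold change of the activating genes. It was at 53.2, 55.2 and 55.2 FPKM in the vehicle samples, which differed from each other by a few percent, and at 87.2, 80.0 and 110 FPKM in the DS-5272 samples. The means were 54.5 ± 1.16 and 92.4 ± 15.8 FPKM (SD, n = 3) and the log2 fold change was 0.74 (SE 0.13, limma adjusted p = 0.00674).

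Fcgr2b, the inhibitory IgG receptor, was at 89.1, 101 and 102 FPKM with vehicle and at 119, 111 and 129 FPKM with DS-5272. Each treated sample was above each vehicle sample, but the gap was narrow. The means were 97.2 ± 7.03 and 120 ± 8.81 FPKM (SD, n = 3), and the log2 fold change was 0.30 with a 95% interval from 0.04 to 0.55 (limma adjusted p = 0.0573). With the replicate number as a block in the fit the limma adjusted p was 0.0418, which is past the threshold. The difference depended on the scale: at a common total it was 0.03 (limma adjusted p = 0.815). An antisense transcript, Gm38204, overlaps exons of Fcgr2b in the other orientation, and whether strand was used when fragments were assigned is not stated, so reads of both cannot be told apart. Of its 100-base stretches 6.79% also occur in another gene.

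Sirpa, the inhibitory receptor for Cd47, was at 54.9, 68.9 and 66.3 FPKM with vehicle and at 167, 174 and 214 FPKM with DS-5272. It had the largest log2 fold change of the 4 genes with an inhibitory role, 1.53 (SE 0.14, limma adjusted p = 0.00123), from 63.4 ± 7.44 to 185 ± 25 FPKM (SD, n = 3). This change was larger than that of 95.7% of all genes tested. It stood beside those of Tyrobp and Fcgr3 and above that of Fcgr2b, although the difference between Sirpa and Fcgr2b was not tested.

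Cd47 was abundant in all samples, at 428, 535 and 476 FPKM with vehicle and at 571, 568 and 660 FPKM with DS-5272. The means were 480 ± 53.5 and 600 ± 52.2 FPKM (SD, n = 3), and the log2 fold change was 0.32 with a 95% interval from 0.00 to 0.65 (limma adjusted p = 0.0884). With the replicate block the limma adjusted p was 0.0377, and at a common total the log2 fold change was 0.06 (limma adjusted p = 0.648). As with Fcgr2b, the samples separated in the deposited values, and most of the difference was gone at a common total.

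Ptpn6, the phosphatase that acts behind ITIM receptors, was at 186, 189 and 205 FPKM with vehicle and at 346, 408 and 516 FPKM with DS-5272. Its log2 fold change was 1.11 (SE 0.16, limma adjusted p = 0.00396), and the means were 193 ± 10.3 and 423 ± 86.2 FPKM (SD, n = 3). The antisense transcript Gm20531 overlaps exons of Ptpn6 and holds 4.62% of its 100-base stretches.

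By level per length, the order in the vehicle samples was Tyrobp, Fcer1g, Cd47, Fcgr3, Ptpn6, Fcgr2b, Sirpa, Syk, Fcgr4 and Fcgr1. The sample ranges of Tyrobp and Fcer1g, of Fcer1g and Cd47, of Sirpa and Syk and of Syk and Fcgr4 overlapped, and the other neighbors in this order were apart. After DS-5272 the order was Tyrobp, Fcer1g, Fcgr3, Cd47, Ptpn6, Fcgr4, Sirpa, Fcgr2b, Syk and Fcgr1, with overlap between Fcer1g and Fcgr3, Fcgr3 and Cd47, and Ptpn6 and Fcgr4. Fcgr4 had passed Syk, Sirpa and Fcgr2b. DS-5272 replicate 3 was the highest sample for 9 of the 10 genes and DS-5272 replicate 1 for Fcgr1, whereas at a common total each of these samples was the highest for 5 genes. Vehicle replicate 1 was the lowest sample for 9 genes. Without DS-5272 replicate 3 the same 8 genes were called higher. In that fit 2208 of all 11108 genes tested were called higher and 2199 lower.

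To ask whether the activating IgG receptors and the inhibitory one changed by different amounts, each activating receptor was set against Fcgr2b in the same sample. A plain FPKM ratio removes any scale that both genes share. The fitted ratio, of FPKM + 1, does so only in part for the weakly expressed Fcgr1, whose log2 change of 3.06 became 3.598 at a common total. Relative to Fcgr2b the balance moved toward the activating receptors in all 3 pairs. Fcgr1 passed the filter on low values only through its DS-5272 samples, so its pair is not free of that selection. Fcgr3 and Fcgr4 are. Sirpa, the other inhibitory receptor, was not set against the activating receptors, and its log2 fold change of 1.53 was above the 1.36 of Fcgr3. The FPKM ratio of Fcgr3 to Fcgr2b was 2.64, 2.94 and 2.70 with vehicle and 4.95, 5.35 and 7.14 with DS-5272, and that of Fcgr4 to Fcgr2b was 0.470, 0.547 and 0.598 with vehicle and 1.95, 2.14 and 3.33 with DS-5272. Fcgr4 thus went from a lower level than the inhibitory receptor in each vehicle sample to a higher one in each DS-5272 sample. The Fcgr1 to Fcgr2b ratio was 0.0121, 0.00419 and 0.00356 with vehicle and 0.174, 0.107 and 0.112 with DS-5272. On the log2 scale the ratio to Fcgr2b rose by 1.06 for Fcgr3 (95% interval 0.69 to 1.43, limma adjusted p = 0.00368), by 2.15 for Fcgr4 (1.65 to 2.64, limma adjusted p = 0.00122) and by 3.06 for Fcgr1 (2.42 to 3.69, limma adjusted p = 0.000861). In the fit of all genes relative to Fcgr2b 13.3% were called higher. The exact two-sided permutation test of a ratio over the 6 samples gave p = 0.1 for each of the 5 pairs compared, which is the smallest p that 3 against 3 samples allow, and 0.1 after adjustment over the 5 pairs.

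**Figure D2:**
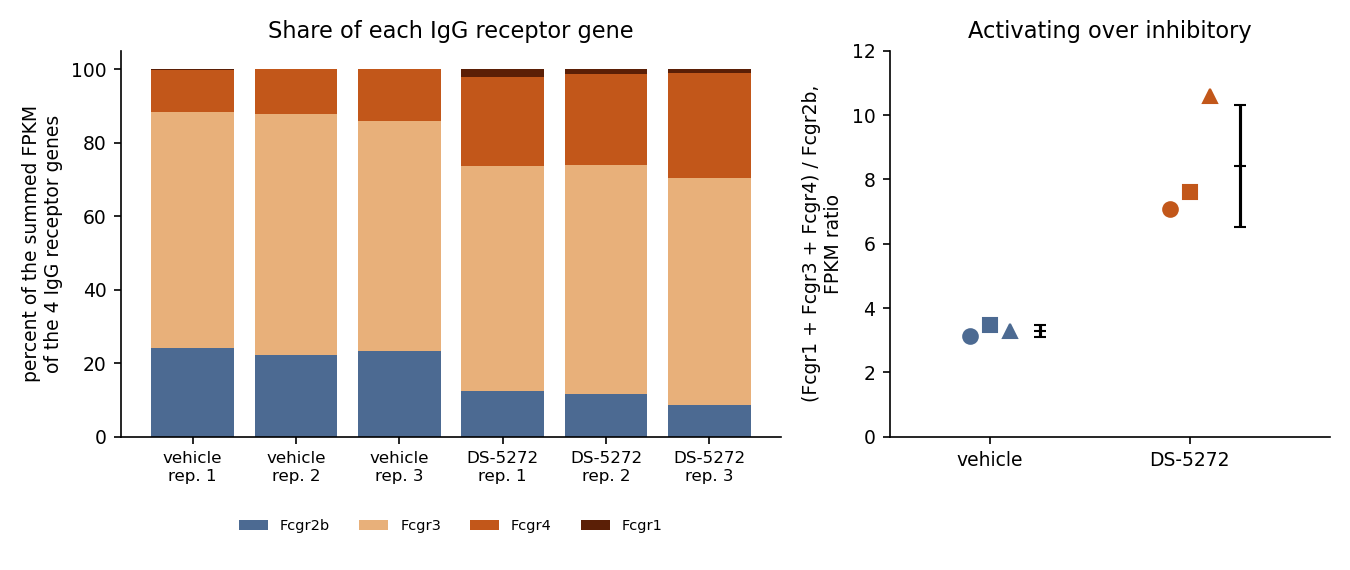
Left, percent of the summed FPKM of the 4 IgG receptor genes held by each gene in the 6 samples; right, FPKM ratio of the summed activating receptors to Fcgr2b by group, with 1 symbol per sample and a bar for the mean and SD. The share of Fcgr2b is 22.3% to 24.3% with vehicle and 8.63% to 12.4% with DS-5272, and the ratio is above 7 in each DS-5272 sample and below 4 in each vehicle sample.

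The summed activating receptors stood at 3.12, 3.49 and 3.30 times the FPKM of Fcgr2b in the vehicle samples and at 7.07, 7.60 and 10.6 times in the DS-5272 samples. Of the summed FPKM of the 4 receptors, Fcgr2b held 23.3 ± 1.0% with vehicle and 10.9 ± 1.99% with DS-5272, while Fcgr4 held 12.5 ± 1.28% and 25.9 ± 2.47% (SD, n = 3). The share of Fcgr3 was similar in both groups, at 64.1 ± 1.36% and 61.7 ± 0.464%. In percentage points the shares that differed most were those of Fcgr2b and Fcgr4. By ratio it was Fcgr1, whose share was 9.27 times as large, and which was a small part in both groups, at 0.157% and 1.46% on average. These shares are descriptions and were not tested.

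Sirpa and Cd47, receptor and ligand, also moved apart. The FPKM ratio of Sirpa to Cd47 was 0.128, 0.129 and 0.139 with vehicle and 0.293, 0.306 and 0.323 with DS-5272. These ratios differed little within a group, and on the log2 scale the ratio rose by 1.20 (95% interval 0.93 to 1.48, limma adjusted p = 0.000644), where 11.6% of all genes were called higher relative to Cd47. The ratio of Syk to Ptpn6, the kinase behind ITAMs against the phosphatase behind ITIMs, was 0.287, 0.292 and 0.269 with vehicle and 0.252, 0.196 and 0.213 with DS-5272. It was lower by a log2 difference of -0.37 (95% interval -0.69 to -0.06, limma adjusted p = 0.0326). Relative to Ptpn6, however, 81.0% of all genes were called lower, so this is not particular to Syk. The Syk call was lost without vehicle replicate 1, 2 or 3 (limma adjusted p = 0.0827, 0.106 and 0.0694), without DS-5272 replicate 2 (0.134) and without the variance trend (0.0509).

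**Figure D3:**
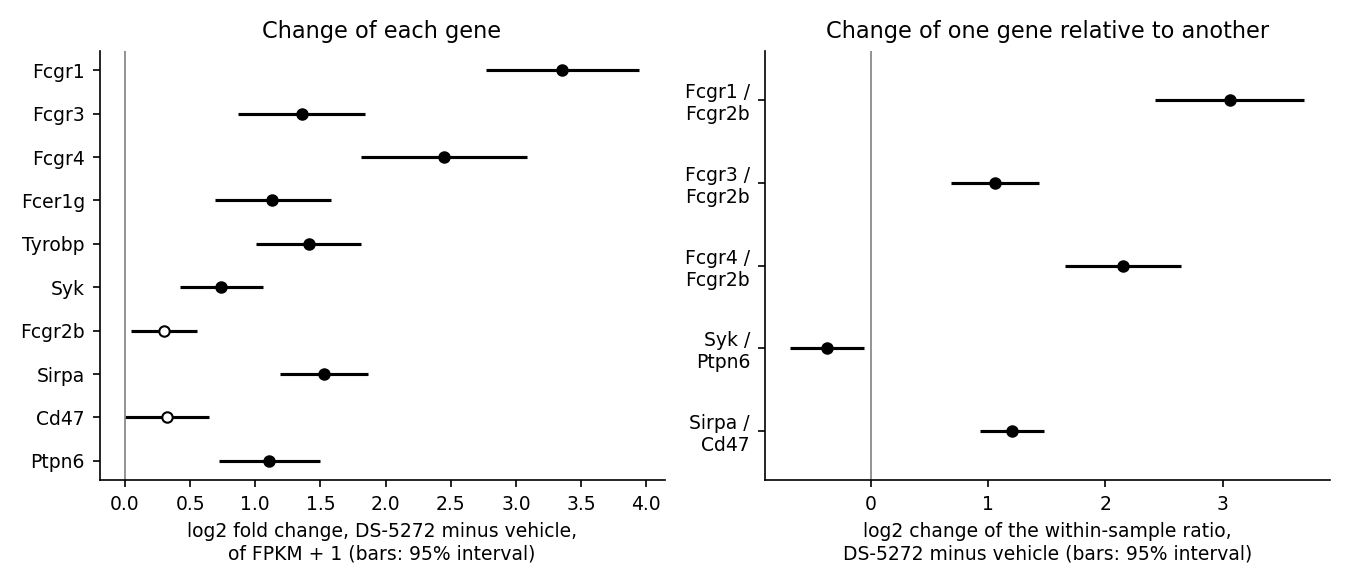
Log2 fold change of FPKM + 1 for each gene (left) and of the within-sample ratio for the 5 pairs (right), DS-5272 minus vehicle, with 95% intervals; filled points were called and open points were not. Fcgr2b and Cd47 are the open points, at 0.30 and 0.32, and the 3 activating receptors lie to the right of 0 also relative to Fcgr2b. Of these, Fcgr1 passed the filter on low values only through its DS-5272 samples.

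Other genes of the same pathway were read from 6 lists with 90 genes in all. The table lists 77 of them by the current symbol and 3 by a former one, 8 lay in entries joined with other genes and 2 had no entry, and 63 passed the filter on low values. Among the 63, 42 were called higher, 2 lower and 19 were not called, and 4 of those called higher had a vehicle mean under 1 FPKM and so had to differ. The background of 24.2% higher and 22.0% lower over all genes applies here too.

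Of 14 other Fc receptors 3 were tested, and the 3 were called higher: Fcrl1 by 1.39, the neonatal Fc receptor Fcgrt by 0.98 and the cytosolic antibody receptor Trim21 by 0.88 on the log2 scale. All 3 were low, with DS-5272 means of 2.62, 6.81 and 12 FPKM, and Fcrl1 is 1 of the genes with a vehicle mean under 1 FPKM. Fcgrt and Trim21 lost the call at a common total (limma adjusted p = 0.0643 and 0.0603), and Fcgrt also without vehicle replicate 3 (0.053). The IgE receptor chain Fcer1a was listed at 0 in each of the 6 samples.

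Of 21 genes for other ITAM-coupled receptors, most of which pair with Fcer1g or Tyrobp, 11 were tested. Of these, 10 were called higher and 1 was not called, with a median log2 fold change of 2.35. Clec4n, which encodes the fungal receptor Dectin-2 that pairs with Fcer1g, was at 14.9, 7.52 and 6.86 FPKM with vehicle and at 177, 161 and 188 FPKM with DS-5272 (log2 fold change 4.11, limma adjusted p = 0.00061). Sirpb1a and Sirpb1b, activating relatives of Sirpa that pair with Tyrobp, went from means of 0.306 and 0.290 to 16.1 and 9.29 FPKM. These near-identical genes can share reads, so their separate values are uncertain, and both had vehicle means under 1 FPKM.

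Of 15 genes for other receptors with ITIMs 11 were tested, 8 were called higher, 1 lower and 2 were not called, with a median log2 fold change of 1.34. Lilrb3, the entry of the paired inhibitory receptor Pirb, was at 32.2, 41.3 and 39.9 FPKM with vehicle and at 245, 254 and 365 FPKM with DS-5272 (log2 fold change 2.88, limma adjusted p = 0.00061). Its activating relative Pira2 is near-identical in part, so reads may be divided between them. The sialic acid receptor Siglece rose by 1.84 and the collagen receptor Lair1 by 1.72 on the log2 scale. Siglecg, best known from B cells, fell by 1.04 on the log2 scale, from 2.69 ± 0.379 to 0.789 ± 0.0280 FPKM (SD, n = 3). It passed the filter on low values only through its vehicle samples and so had to differ. The log2 fold change of Fcgr2b lay below those of the 8 called genes of this list.

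Downstream of the receptors, 10 of 17 kinases and adaptors were called higher and 7 were not called, with a median log2 fold change of 0.61. Among those called higher, Fgr and Lyn are kinases of myeloid cells that phosphorylate ITAMs and ITIMs, and they rose by 2.93 and 1.60 on the log2 scale. Fgr was at 8.86, 17.3 and 21.6 FPKM with vehicle and at 75.2, 132 and 176 FPKM with DS-5272, and Lyn went from 96.2 ± 4.24 to 299 ± 65.0 FPKM (SD, n = 3). Syk, at 0.74, was near the median of this list. Of 13 phosphatases and inhibitory adaptors 7 were called higher, 1 lower and 5 were not called, with a median of 0.55. The adaptor Dok2 rose by 1.78, Pag1 by 0.99 and Dok3 by 0.71 on the log2 scale, and Ptpn6, at 1.11, lay above all but Dok2. Ptpn11, which encodes SHP-2, the relative of SHP-1, was called lower with a log2 fold change of -0.28 (limma adjusted p = 0.0482), a call that was lost when any of the 6 samples was left out (-0.33 to -0.24) and with the replicate block (limma adjusted p = 0.0531). Dok3 lost its call without vehicle replicate 2 (0.0517).

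Among 10 other signals that tell phagocytes to engulf or to spare a cell, 8 were tested, 4 were called higher and 4 were not called, with a median log2 fold change of 1.23. This median lies between the values of Mertk and Axl, which were not called. Both genes had a vehicle mean under 1 FPKM and passed the filter on low values only through their DS-5272 samples. Both were highest in DS-5272 replicate 1. The median of this list is therefore not free of that selection. Lrp1, a receptor for calreticulin on phagocytes, rose by 1.98 on the log2 scale. Cd24a, a sparing signal read by Siglec receptors, was called higher by 1.45, and its call was lost without vehicle replicate 1, vehicle replicate 2 or DS-5272 replicate 2 (limma adjusted p = 0.0629, 0.0583 and 0.0575). Thbs1, a secreted ligand of Cd47, was at 0.376, 4.33 and 3.30 FPKM with vehicle and at 4.92, 30.1 and 78.0 FPKM with DS-5272. It passed the threshold narrowly (log2 fold change 2.95, limma adjusted p = 0.0437) and lost the call when any sample other than DS-5272 replicate 1 was left out, with limma adjusted p from 0.0708 to 0.123 and log2 fold changes from 2.1 without DS-5272 replicate 3 to 3.33 without vehicle replicate 2.

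**Figure D4:**
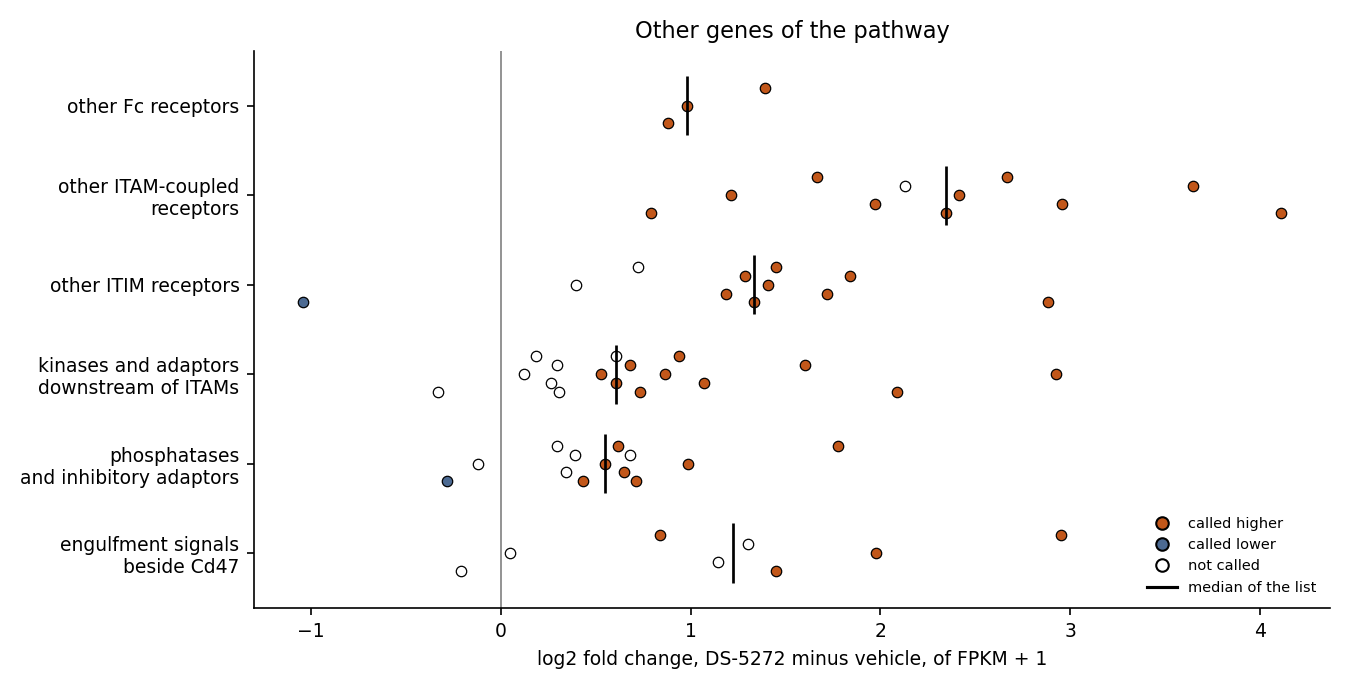
Log2 fold change of FPKM + 1, DS-5272 minus vehicle, of the tested genes in 6 lists of the pathway, with 1 point per gene (orange called higher, blue called lower, white not called) and a black line at the median of each list. Receptors coupled to ITAM adaptors lie furthest to the right with a median of 2.35, and the kinase and phosphatase lists lie closer to 0 with medians of 0.61 and 0.55.

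The marker genes of the labelled cell type and of other cells of the marrow bear on all of these values, since in bulk RNA more cells of a type and more RNA per cell cannot be told apart. Of 9 markers of MLL-AF9 leukemia 7 had an entry of their own, while Hoxa9 and Hoxa10 lay in joined entries. Meis1, a cofactor of the leukemia program, was at 66.1 to 80.6 FPKM with vehicle and at 69.2 to 110 FPKM with DS-5272. Itgam and Mef2c were called higher in this list, Mef2c with a vehicle mean under 1 FPKM so that it had to differ, while Kit, at 30.5 to 45.0 and 4.94 to 12.1 FPKM, and Mpo, at 140 to 325 and 3.25 to 12.2 FPKM, were called lower. The summed level of this list was 766 to 955 FPKM with vehicle and 943 to 1534 FPKM with DS-5272. Without Itgam, a gene of mature myeloid cells that was left out after its values were seen, it was 591 to 765 FPKM with vehicle and 412 to 447 FPKM with DS-5272, the other direction. That lower sum rests largely on Mpo, whose mean went from 228 to 6.40 FPKM. The means of Kit and Myb were also lower, and those of Meis1, Pbx3 and Mef2c were higher.

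Some markers of mature phagocytes were also higher after DS-5272. The 12 macrophage markers summed to 66.9 to 119 FPKM with vehicle and to 206 to 478 FPKM with DS-5272, and 5 of the 11 tested were called higher. Mertk and Axl stand in this list and among the engulfment signals. The tissue macrophage genes C1qa and Cd5l were by far highest in DS-5272 replicate 1, where C1qa was at 38.4 FPKM against 6.92 and 6.64 in the other two and Cd5l at 61.7 against 1.76 and 4.43. With vehicle C1qa was at 0.719 to 2.15 FPKM and Cd5l at 0.242 to 1.635, so each DS-5272 sample was above each vehicle sample. C1qa was called higher (limma adjusted p = 0.0187) and Cd5l was not (0.12). Fcgr1 was also highest in DS-5272 replicate 1. Siglec1, at 0.677 to 2.43 FPKM with vehicle and 16.5 to 29.5 FPKM with DS-5272, and Emr1 (F4/80), at 16.7 to 23.3 and 59.8 to 116 FPKM, were also higher in each DS-5272 sample. The 8 neutrophil markers summed to 306 to 1466 FPKM with vehicle and to 2276 to 8662 FPKM with DS-5272, and 6 of the 8 were called higher, of which Ly6g had a vehicle mean under 1 FPKM and so had to differ. Their sum was highest in DS-5272 replicate 3, as were 9 of the 10 genes. The part of these markers in the rise of the Fc receptor genes was not tested.

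Markers of other cell types were low in most lists, and the part of such cells in the Fc receptor values was not tested. The 7 NK cell markers summed to 0.435 to 0.870 FPKM with vehicle and to 1.58 to 3.29 FPKM with DS-5272. None reached the filter, and Ncr1 was at most 0.0330 FPKM with vehicle and 0.354 FPKM with DS-5272. B cells use Fcgr2b as their sole IgG receptor. Of their 7 markers Pax5 and Ms4a1 were under 0.1 FPKM in each sample, the 2 that were tested were not called, and the list summed to 5.46 to 7.48 FPKM with vehicle and to 4.69 to 5.92 FPKM with DS-5272. T cell markers summed to 0.363 to 0.463 and 0.704 to 3.58 FPKM. Mast cell and basophil markers summed to 65.9 to 87.9 and 138 to 193 FPKM, of which most was Hdc, and Fcer1a and Tpsb2 were at 0 throughout. Of the 3 tested in that list Hdc was called higher and Mcpt8 lower. Dendritic cell markers summed to 0.535 to 0.904 and 3.59 to 8.94 FPKM, with Itgax the 1 gene tested and called higher. Itgax had a vehicle mean under 1 FPKM and so had to differ. Erythroid markers summed to 1.93 to 3.84 and 8.27 to 91.0 FPKM, highest in DS-5272 replicate 1, with 1 of 2 tested genes called higher.

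Across the 6 samples, the genes outside this group whose log2 level was most like that of Fcgr4 were Stard3, Plcl2 and Anxa5, with Pearson's r of 0.9996, 0.9993 and 0.9992. Those most like Fcgr2b were Wdr92, Snx22 and Ppib, with r of 0.9972, 0.9961 and 0.9937. These are the highest of 11130 genes over 6 samples in 2 groups, and they are given as a description. For example, Anxa5 stood at 84.1 to 99.1 FPKM with vehicle and at 194, 207 and 271 FPKM with DS-5272, while Ppib stood at 105 to 122 FPKM and at 145, 139 and 164 FPKM. Spread within the treated group did not set the 2 patterns apart. With DS-5272 Stard3 was at 25.7, 25.8 and 31.2 FPKM and Wdr92 at 51.4, 44.4 and 60.3 FPKM.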

How the data were processed

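The authors made strand-specific libraries from total RNA and sequenced them as pairs of 100 nucleotides. They trimmed the reads with cutadapt 1.8.1 and ran TopHat 2.1.1 and Cufflinks 2.2.1 against transcripts of GRCm38 to obtain FPKM values per gene. The deposited FPKM values hold no counts, so no count model was used. The table has 26632 lines, and lines that share a name were summed. The 10 genes, the lists and the tests were chosen with earlier results of these data known.

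Both groups (3 samples each) were compared with limma 3.58.1 in R 4.3.3, using lmFit and then eBayes with trend, in a two-sided test of log2(FPKM + 1). Genes averaging under 1 FPKM were left out, and p-values were adjusted over all tested genes by the Benjamini-Hochberg method. Pairs were compared by the same fit on the log2 ratio of each gene to its partner. The code was tested on simulated data. Plots were drawn with matplotlib 3.10.9, and the table was read with pandas 2.3.3 in Python 3.11.15.

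Named are the 10 genes, in each list the 3 largest called rises and the 2 largest called falls, the 3 genes most like Fcgr4 and Fcgr2b, and markers with high levels or on which a sentence rests. Some genes that this rule selects are not reported here. Pira2 and Fcer1a were added after their values were seen. Replicates carry the same numbers in both groups without a stated batch. Between same-numbered samples the deviations from the group means correlated by 0.66, 0.21 and 0.43, and between differently numbered ones by -0.58 to 0.34, the highest being vehicle replicate 2 with DS-5272 replicate 3. Each same-numbered value is over the limit of 0.1, and the numbers were therefore taken to pair the samples in an alternative fit, the replicate block. The pairing is uncertain, since vehicle replicate 2 was more like DS-5272 replicate 3 (0.34) than DS-5272 replicate 2 (0.21). The main fit leaves the samples unpaired, and calls and p-values come from it unless the block is named. Alternatives were no filter or a stricter one of 5 FPKM on average, a pseudocount of 0.1, a common total, upper quartile or median ratio, the replicate block, eBayes without trend and leaving out each sample. Depth was estimated from 86 genes with 1 transcript and gives a scale only, so no counting intervals were derived.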

Additional observations from a re-analysis of the deposited data

How the results depend on the processing

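Across 14 alternatives for each of the 10 genes and 5 pairs, 203 of 210 combinations kept direction and side of the threshold, and 0 changed direction. With the replicate block, which treats the same-numbered samples as paired, Fcgr2b (limma adjusted p = 0.0418) and Cd47 (0.0377) passed the threshold, so that 10 genes were called higher, and it changed no other call among these genes and pairs. The other 5 changes were lost calls of Syk relative to Ptpn6, at -0.371 without the trend and with vehicle replicate 1, 2 or 3 or DS-5272 replicate 2 left out, where leaving out any sample gave from -0.471 to -0.291. The cause was not tested. Genes called higher numbered 8 to 10 and called lower 0 throughout. In the wider lists 34 to 50 genes were called higher. Called lower were 2, against 3 at a common total, upper quartile or median ratio, and 1 with the mean of at least 5 FPKM (which removes Siglecg), without the trend and with each sample left out. Over all genes, 2697 were called higher and 2451 lower, against 1717 higher at a common total, 1654 higher and 1404 lower without vehicle replicate 2, and 1489 lower without vehicle replicate 3. With the replicate block they were 3367 higher and 2771 lower. Of 276 combinations for the 20 named genes of the wider lists, 21 lost a call, in 6 genes. The Fcgr1 values with vehicle rest on few fragments, an estimated 39 to 130 per sample, though they are not at the floor.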
